A study of Mus musculus with 16 samples.

Results

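Chemokines and chemokine receptors were followed in whole uteri of ovariectomized mice 6 h after progesterone (P4) or oil. The genes were chosen by symbol alone, as the numbered Ccl and Cxcl ligands, the numbered Ccr and Cxcr receptors, Cx3cl1, Cx3cr1, Xcl1, Xcr1 and the atypical receptors Ackr1, Ackr2 and Ackr3. This rule found 55 of the 31274 features of the table, 35 ligands and 20 receptors; the symbol Ackr1 itself was not among them. The mice carried Pgr-Cre and 1 Cre-activated progesterone receptor allele, either for isoform B (PgrcrePgrBLsL/+, called PRB here) or for isoform A (PgrcrePgrALsL/+, called PRA). The 4 groups were PRB with P4, PRB with oil, PRA with P4 and PRA with oil, each with 4 biological replicates, 16 libraries in all. All mice were females housed to 8 weeks of age, were ovariectomized for 2 weeks, and shared the Pgr-Cre driver and a transgene, so that no group without a transgene stood beside them. A further label speaks of mated females dissected on a day of pregnancy, and the study's title of the uterine epithelium, whereas the sample labels name ovariectomy and whole uterus; the groups follow the sample labels.

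Chemokines are small secreted proteins that guide the movement of leukocytes, and they are grouped as CC, CXC, XC and CX3C ligands by the spacing of their first cysteines. They act through G protein-coupled receptors, while atypical receptors bind the same ligands and remove them without G protein signalling. In the uterus, ovarian steroids are known to set which leukocytes enter the tissue, and stromal and epithelial cells make many of the ligands.

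Total FPKM (fragments normalized to transcript length and depth) was 578463 to 595748 in PRB with P4 and 507931 to 520113 in PRB with oil. In PRA it was 572846 to 594092 with P4 and 499748 to 528785 with oil. The spacing of low values put depth at 52.9 M to 59.5 M fragments in the P4 libraries. In the oil libraries it was 61.9 M to 64.5 M. Both measures were thus apart between P4 and oil, and this offset cannot be told apart from treatment. Epithelial, stromal and smooth muscle markers, which whole uterus should hold, were measured in every group. Pgr lay at 78.5 to 125.7 FPKM in PRB with P4, 79.5 to 87.6 FPKM in PRB with oil, 72.1 to 76.4 FPKM in PRA with P4 and 56.8 to 68.9 FPKM in PRA with oil, and this row cannot tell transgene from endogenous receptor. Replicate 3 of PRB with P4 stood apart. Its summed level of 10 macrophage and monocyte markers was 701.1 FPKM, against 306.1 to 330.1 FPKM in the other 3 libraries of its group, and its Pgr was 78.5 FPKM, against 121.2 to 125.7 FPKM in those 3. Where leaving it out ended a call, this is stated, and where that moved a called value most, the value without it is given too. Library position follows strain and treatment in the labels, so that position and group cannot be told apart.

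The promoters of 5 genes are shown for reference, and no expression result rests on them. Cxcl1, Cxcl2 and Cxcl3 encode neutrophil attractants of chromosome 5 and include Cxcl1, the gene that differed most between the strains under P4. Cxcl12 and Cxcr4 are a ligand and its receptor that fell together in both strains. Each line gives the 250 bases before the RefSeq start site (GRCm38.p6), 5′ to 3′ on the gene's strand. Capitals mark matches on either strand to GGG, any 3 bases and TTCC, a form of the site bound by NF-kB, or to TATAAA.
Cxcl1, chr5:90890995-90891244, plus strand: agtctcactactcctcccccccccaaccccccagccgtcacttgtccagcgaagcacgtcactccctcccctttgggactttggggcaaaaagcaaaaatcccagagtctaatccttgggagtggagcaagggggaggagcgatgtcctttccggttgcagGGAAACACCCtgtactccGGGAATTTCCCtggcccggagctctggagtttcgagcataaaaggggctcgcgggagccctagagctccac
Cxcl2, chr5:90903649-90903898, plus strand: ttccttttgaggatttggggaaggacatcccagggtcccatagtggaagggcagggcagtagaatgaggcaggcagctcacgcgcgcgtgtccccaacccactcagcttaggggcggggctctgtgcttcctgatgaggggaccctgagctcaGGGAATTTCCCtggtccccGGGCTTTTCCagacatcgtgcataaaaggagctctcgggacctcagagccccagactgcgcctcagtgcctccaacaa
Cxcl3, chr5:90785851-90786100, plus strand: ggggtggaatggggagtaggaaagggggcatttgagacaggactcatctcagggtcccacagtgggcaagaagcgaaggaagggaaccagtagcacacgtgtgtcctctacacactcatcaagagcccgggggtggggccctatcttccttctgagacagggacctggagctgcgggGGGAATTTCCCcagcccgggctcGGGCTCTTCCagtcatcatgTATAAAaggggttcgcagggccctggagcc
Cxcl12, chr6:117168285-117168534, plus strand: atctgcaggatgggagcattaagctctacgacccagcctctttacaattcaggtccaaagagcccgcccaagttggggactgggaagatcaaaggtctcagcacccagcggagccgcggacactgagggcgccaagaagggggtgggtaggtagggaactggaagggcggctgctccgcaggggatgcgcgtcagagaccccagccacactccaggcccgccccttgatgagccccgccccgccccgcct
Cxcr4, chr1:128592300-128592549, minus strand: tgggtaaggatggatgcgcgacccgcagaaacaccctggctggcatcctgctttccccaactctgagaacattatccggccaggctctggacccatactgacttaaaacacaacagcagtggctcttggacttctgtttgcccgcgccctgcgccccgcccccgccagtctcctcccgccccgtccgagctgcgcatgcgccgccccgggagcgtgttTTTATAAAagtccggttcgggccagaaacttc

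The sequence GGGAATTTCCC stood in the 3 printed windows of neutrophil attractants, between 97 and 61 bases before the start. Cxcl15, another gene of that group with a window, held TATAAA there and no match to the NF-kB type motif. In the sequence that the 3 printed windows shared, the NF-kB type motif is read on both strands, so the matches overlap. Of 32851 RefSeq promoter windows of this length, 4.65% held this NF-kB type motif, and of the 44 windows found for 40 of the 55 genes, 9 did. The genes were Ccl1, Ccl9, Ccl20, Ccr3, Ccr6, Cxcl1, Cxcl2, Cxcl3 and Cxcl10. TATAAA stood in 12.4% of all windows and in 12 of the 44. The window of Cxcr4 held it 30 bases before the start, and the window of Cxcl12 held neither motif. The palindromic element of steroid receptors of the progesterone receptor class, searched as G, any base, ACA, any 3 bases, TGT, any base and C, occurred in 0.387% of all windows and in 0 of the 44. A match is a run of letters in this window and says nothing of binding.

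Most of the chemokine system was weakly expressed in these uteri, with a few abundant ligands. Of the 55 genes, 33 (23 ligands and 10 receptors) averaged 1 FPKM or more across all libraries, and these were tested; 22 lay under 1 FPKM, 6 of them under 0.1 FPKM. On this scale, which corrects for length, Cxcl12 was the most abundant at 157.7 FPKM, followed by Cxcl14 at 76.06, Ccl27a at 31.17, Cx3cl1 at 26.94, Ackr3 at 24.83, Cxcr4 at 24.56 and Cxcl17 at 23.39 FPKM. Over the 16 libraries the ranges of the genes from Ccl27a to Cxcl17 overlapped. Cxcl16, the ligand of Cxcr6, followed at 17.25 FPKM. The lymphoid attractants Ccl19 and Ccl20 were at 0.331 and 0.1059 FPKM, and Ccl26 was listed at 0 in all but 1 library. The heatmap of the tested genes shows Cxcr4 and Cxcl12 low, and Ccl12, Ccl7 and Ccl28 high, in P4 libraries of both strains.

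**Figure D1:**
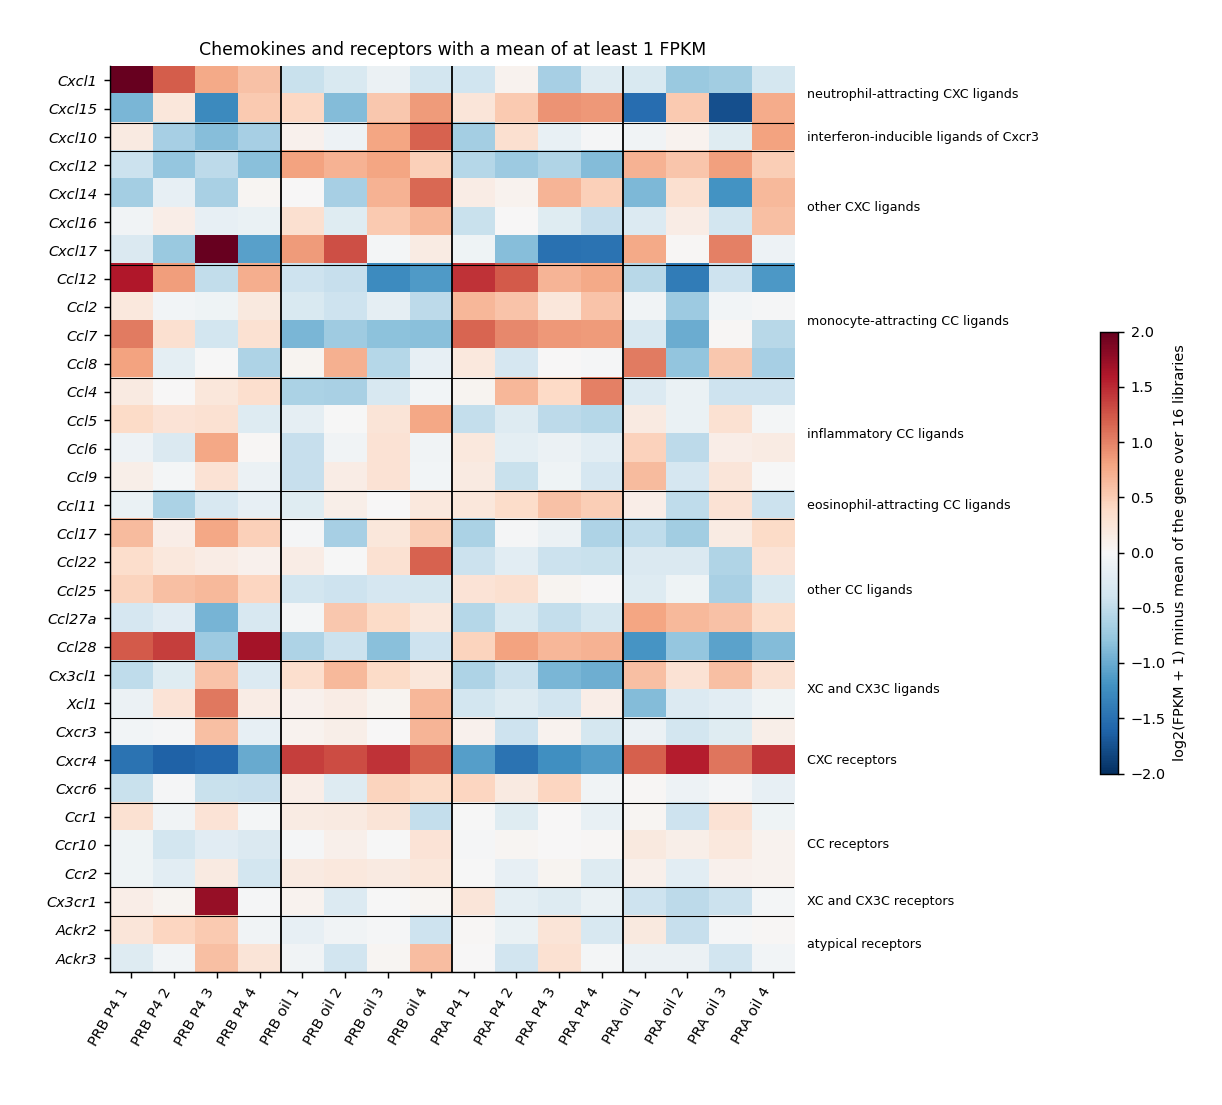
Level of 32 of the 33 tested chemokine and receptor genes in each library (columns, by group), as log2(FPKM + 1) minus the mean of the gene over the 16 libraries; red is above and blue below that mean, and values past 2 either way take the end colour. Cxcr4 was low in all 8 P4 libraries and high in all 8 oil libraries, and replicate 3 of PRB with P4 was high for Cx3cr1 and Cxcl17.

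P4 changed expression widely in these uteri, and the chemokine genes moved in both directions. Differences are given as log2(FPKM + 1) with the standard error of the fit (SE), and a gene is said to have risen or fallen where limma's p, adjusted over all 15408 features tested, was under 0.05. In PRB, 8 of the 33 genes rose and 8 fell, beside 36.2% and 32.9% of all features, 69.1% in all. In PRA, 8 rose and 6 fell, beside 36.6% and 33.2%, 69.8% in all. The median difference of the 33 genes was -0.01 in PRB and 0.00 in PRA, and that of all features was 0.00 in PRB and 0.01 in PRA. The genes that rose in both strains were 6, Ccl2, Ccl4, Ccl7, Ccl12, Ccl25 and Ccl28, which is 18.2% of the 33, beside 32% of all features. They made up 75% of either list of risers, beside 88.3% of the PRB list and 87.2% of the PRA list over all features. Another 4 fell in both, Ccl27a, Cx3cl1, Cxcl12 and Cxcr4, which is 12.1% of the 33, beside 28% of all features. They made up 50% of the PRB list and 66.67% of the PRA list, beside 85.0% and 84.3% over all features. The groups did not overlap for 5 genes higher and 4 lower in PRB, where 32.6% and 28.5% of all features did not overlap, and for 6 higher and 6 lower in PRA, beside 35% and 31.2%.

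Of the 33 genes, Cxcr4 had the largest fall in both strains. Cxcr4, the receptor of Cxcl12 on leukocytes, endothelium and many other cells, is a gene of chromosome 1 (chr1:128588199-128592293, minus strand, GRCm38). Its level was 5.28, 4.71, 4.87 and 7.71 FPKM in PRB with P4, against 44.75, 42.05, 46.71 and 39.01 FPKM in PRB with oil. In PRA it was 7.19, 5.25, 6.51 and 7.05 FPKM with P4, against 39.15, 51.02, 35.55 and 46.07 FPKM with oil. Every P4 library lay far under every oil library, and the P4 levels of the strains overlapped. The mean was 7.64-fold lower with P4 in PRB (log2 difference -2.75, SE 0.14, limma adjusted p = 6.43e-10) and 6.61-fold lower in PRA (-2.55, SE 0.14, 1.45e-09). In whole tissue, fewer cells of a type and less RNA per cell cannot be told apart.

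Its ligand Cxcl12, which stromal cells make and which retains and attracts Cxcr4-bearing cells, fell as well. Cxcl12 (chr6:117168535-117181367, plus strand) was at 104.6, 82.0, 98.35 and 78.5 FPKM in PRB with P4, against 249.0, 230.2, 245.8 and 197.5 FPKM in PRB with oil. PRA had 94.52, 85.09, 92.54 and 77.01 FPKM with P4, against 229.8, 207.7, 250.7 and 200.2 FPKM with oil. No P4 library reached the lowest oil library, and the size of the fall was nearly equal in the strains. It was 2.54-fold in each (log2 difference -1.34, SE 0.11 in both; limma adjusted p = 4.71e-08 in PRB and 4.75e-08 in PRA). Ackr3, the atypical receptor that takes up Cxcl12, did not pass the test: it averaged 27.6 ± 7.58 FPKM in PRB with P4 and 26.1 ± 8.30 FPKM in PRB with oil (SD, n = 4 each), and 24.1 ± 4.88 FPKM in PRA with P4 and 21.6 ± 2.24 FPKM in PRA with oil.

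Cx3cl1 fell in both strains. It encodes fractalkine, a ligand tethered to epithelial and endothelial membranes that binds Cx3cr1 on monocytes, macrophages and NK cells. Levels were 17.34, 21.12, 37.64 and 20.60 FPKM in PRB with P4, against 32.12, 39.94, 33.19 and 29.54 FPKM in PRB with oil. PRA had 16.07, 18.40, 12.89 and 12.27 FPKM with P4, against 38.83, 31.09, 38.62 and 31.41 FPKM with oil. The PRA groups were apart, while in PRB the P4 library that stood apart, replicate 3, lay among the oil values. The log2 difference was -0.52 in PRB (SE 0.19, limma adjusted p = 0.0274) and -1.19 in PRA (SE 0.19, 6.46e-05). The PRB call ended without PRB P4 replicate 1, 2 or 4 or PRB oil replicate 2 (adjusted p of 0.0655 to 0.0952), and without PRB P4 replicate 3 the PRB difference was -0.74 (0.000315). The receptor Cx3cr1 did not pass the test in either strain, and its PRB P4 libraries held 3.88 to 4.42 FPKM apart from 15.47 FPKM in replicate 3.

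Ccl28 rose in both strains. Ccl28, made by mucosal epithelium and a ligand of Ccr10 and Ccr3, was at 26.65, 29.89, 6.13 and 36.55 FPKM in PRB with P4, against 6.71, 7.77, 5.62 and 7.90 FPKM in PRB with oil. In PRA it was at 15.02, 19.62, 17.62 and 18.19 FPKM with P4, against 4.22, 5.88, 4.64 and 5.43 FPKM with oil. All P4 libraries but replicate 3 of PRB lay above every oil library. Ccl28 rose by 1.46 in PRB (SE 0.37, limma adjusted p = 0.00264) and by 1.63 in PRA (SE 0.37, 0.00117). Without PRB P4 replicate 3 the PRB P4 mean was 31.0 FPKM, against 24.8 FPKM with it, and the PRB difference was 2.00 (adjusted p = 2.30e-08).

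Ccl27a, another ligand of Ccr10 and best known from skin, fell. Its levels were 23.06, 24.87, 14.94 and 23.29 FPKM in PRB with P4, against 28.63, 43.30, 38.55 and 34.52 FPKM in PRB with oil. In PRA they were 19.44, 23.68, 20.72 and 22.68 FPKM with P4, against 51.31, 46.82, 44.66 and 38.29 FPKM with oil. No P4 library overlapped the oil libraries of its strain, and the log2 difference was -0.73 in PRB (SE 0.15, limma adjusted p = 0.000509) and -1.03 in PRA (SE 0.15, 2.32e-05). Reads of Ccl27a are uncertain, because its transcripts are near-identical to those of Ccl27b and Gm13306; Gm13306 stood at 0 to 0.956 FPKM in the 16 libraries. Ccr10, their shared receptor on plasma cells and T cells, fell in PRB, where it was 2.44 ± 0.285 FPKM with P4 and 3.33 ± 0.413 FPKM with oil (log2 difference -0.33, limma adjusted p = 0.00159). In PRA its level was 3.10 ± 0.0853 FPKM with P4 and 3.49 ± 0.210 FPKM with oil (-0.13, 0.141). In both strains every P4 library lay under every oil library, and the difference of responses was not called (-0.20, limma adjusted p = 0.401). The PRB call was lost under quantile normalization (adjusted p = 0.425).

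Ccl25 rose in both strains. It is the ligand of Ccr9 that directs lymphocytes to thymus and small intestine, and Ccr9 itself was at 0.123 FPKM over all libraries. Ccl25 was at 3.97, 4.57, 4.74 and 3.93 FPKM in PRB with P4, against 1.83, 1.76, 1.89 and 1.86 FPKM in PRB with oil. PRA libraries held 3.41, 3.56, 2.81 and 2.67 FPKM with P4, against 2.06, 2.44, 1.34 and 1.97 FPKM with oil. The groups of both strains were apart, and the log2 difference was 0.90 in PRB (SE 0.11, limma adjusted p = 3.56e-06) and 0.49 in PRA (SE 0.11, 0.00106). The exons of Ccl25 share 204 bases with Elavl1 on the other strand, and whether counting used the strand is not given in the sources used here.

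**Figure D2:**
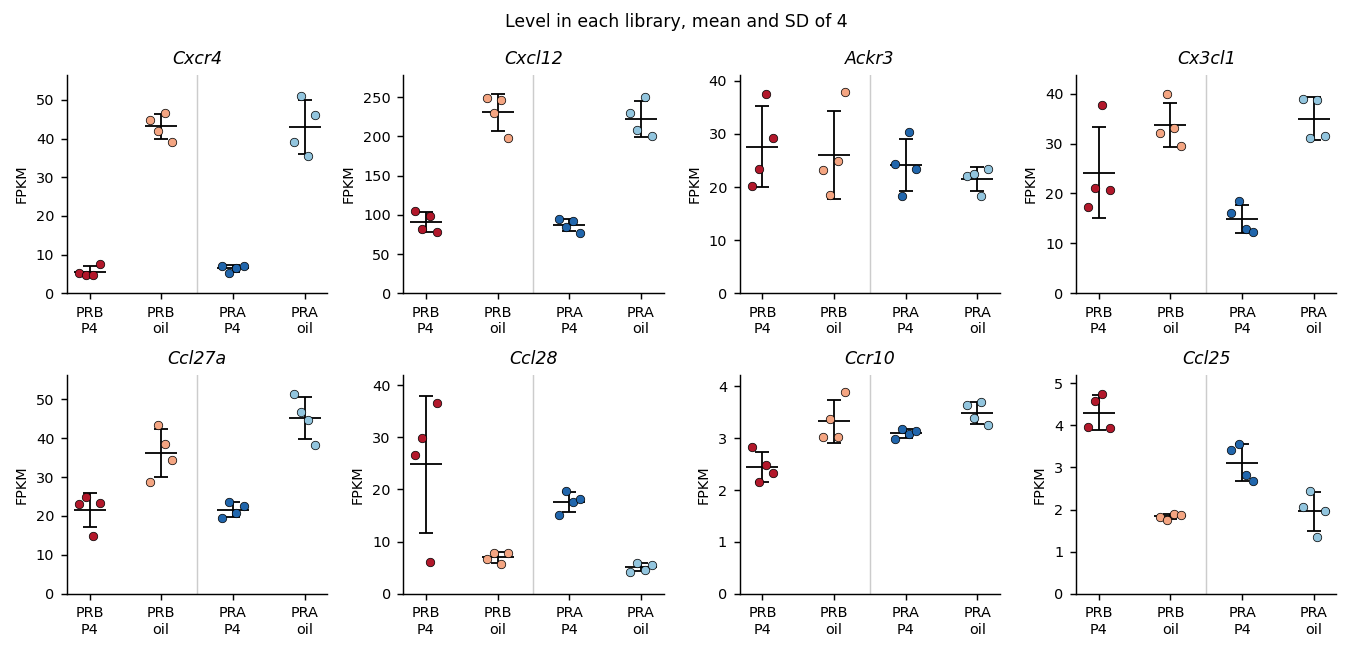
FPKM of Cxcr4, Cxcl12, Ackr3, Cx3cl1, Ccl27a, Ccl28, Ccr10 and Ccl25 in each library, with points for libraries and bars for the mean and SD of 4. P4 libraries lie under the oil libraries of their strain for Cxcr4, Cxcl12, Ccl27a and Ccr10 and above them for Ccl25. The low P4 point of Ccl28 at 6.13 FPKM is replicate 3 of PRB.

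Of 4 ligands that attract monocytes, Ccl2, Ccl7 and Ccl12 rose with P4 in PRB and in PRA, as 32% of all features did, and Ccl8 did not pass the test in either. Ccl2, Ccl7 and Ccl12 bind Ccr2, and their genes lie close together on chromosome 11 (Ccl2 at chr11:82035571-82037453, Ccl7 at chr11:82045712-82047525, Ccl12 at chr11:82101845-82103400, all on the plus strand). Ccl12 was at 13.75, 7.70, 2.46 and 7.09 FPKM in PRB with P4, against 2.67, 2.52, 1.03 and 1.21 FPKM in PRB with oil. In PRA it reached 12.22, 10.32, 6.80 and 7.20 FPKM with P4, against 2.31, 0.850, 2.66 and 1.20 FPKM with oil. Only replicate 3 of PRB with P4 fell among the oil values. The log2 difference was 1.49 in PRB (SE 0.37, limma adjusted p = 0.00243) and 1.90 in PRA (SE 0.37, 0.000346), and without PRB P4 replicate 3 it was 1.88 in PRB (9.54e-05).

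Ccl7 rose as well. Its levels were 4.38, 2.24, 1.01 and 2.21 FPKM in PRB with P4, against 0.377, 0.594, 0.481 and 0.464 FPKM in PRB with oil. In PRA they were 4.83, 4.06, 3.76 and 3.70 FPKM with P4, against 1.09, 0.307, 1.65 and 0.779 FPKM with oil. The groups were apart in both strains, with log2 differences of 1.14 in PRB (SE 0.25, limma adjusted p = 0.000779) and 1.42 in PRA (SE 0.25, 0.000117). Ccl2, the best-known monocyte attractant, was lower in level, at 1.24 ± 0.246 FPKM with P4 and 0.669 ± 0.174 FPKM with oil in PRB, and at 2.05 ± 0.392 FPKM with P4 and 0.860 ± 0.388 FPKM with oil in PRA (SD, n = 4 each). It rose by 0.42 in PRB (SE 0.16, limma adjusted p = 0.0284) and by 0.73 in PRA (SE 0.16, 0.000831). The PRB call of Ccl2 ended without PRB P4 replicate 1 or 4 or PRB oil replicate 2 or 4 (adjusted p of 0.0606 to 0.0753). Ccl2 passed the filter of 1 FPKM only through PRA with P4, where it was highest.

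Their receptor Ccr2, a marker of inflammatory monocytes, did not rise in either strain. It fell in PRB, at 8.63, 7.81, 10.59 and 6.93 FPKM with P4, against 10.54, 10.79, 10.55 and 10.89 FPKM with oil (log2 difference -0.31, SE 0.11, limma adjusted p = 0.0170). The highest P4 library overlapped the oil range, and the call ended without PRB P4 replicate 4 (adjusted p = 0.0634) and under quantile normalization. In PRA it averaged 8.58 ± 0.980 FPKM with P4 and 9.33 ± 1.04 FPKM with oil (-0.11, 0.387). Of 10 macrophage and monocyte markers, 1 rose and 0 fell in PRB, beside 36.2% and 32.9% of all features. In PRA 1 of these markers rose and 1 fell, beside 36.6% and 33.2%, and Cd14 was the 1 that rose in both. Their summed level was 306.1 to 701.1 FPKM in PRB with P4, 302.1 to 318.1 FPKM in PRB with oil, 254.9 to 311.1 FPKM in PRA with P4 and 202.7 to 306.0 FPKM in PRA with oil. The part of these cells in the change of the ligands was not tested.

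Among the inflammatory CC ligands beside the monocyte attractants, Ccl4 rose in both strains. It was at 1.47, 1.18, 1.56 and 1.75 FPKM in PRB with P4, against 0.400, 0.384, 0.739 and 1.09 FPKM in PRB with oil, and the log2 difference was 0.61 (SE 0.18, limma adjusted p = 0.00869). In PRA it was at 1.25, 2.46, 1.87 and 3.39 FPKM with P4, against 0.803, 0.988, 0.624 and 0.638 FPKM with oil (0.84, SE 0.18, 0.000854). The P4 libraries of either strain lay above its oil libraries. Ccl4 passed the filter of 1 FPKM only through PRA with P4, where it was highest. Ccl5, made by T and NK cells, averaged 8.48 ± 1.75 FPKM with P4 and 8.88 ± 3.06 FPKM with oil in PRB, and it fell in PRA, at 5.05 ± 0.592 FPKM with P4 and 7.82 ± 1.23 FPKM with oil (log2 difference -0.54, SE 0.19, limma adjusted p = 0.0187). That call ended without PRA oil replicate 3 (adjusted p = 0.0576). Ccl6, Ccl9 and the receptor Ccr1 did not pass the test in either strain.

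**Figure D3:**
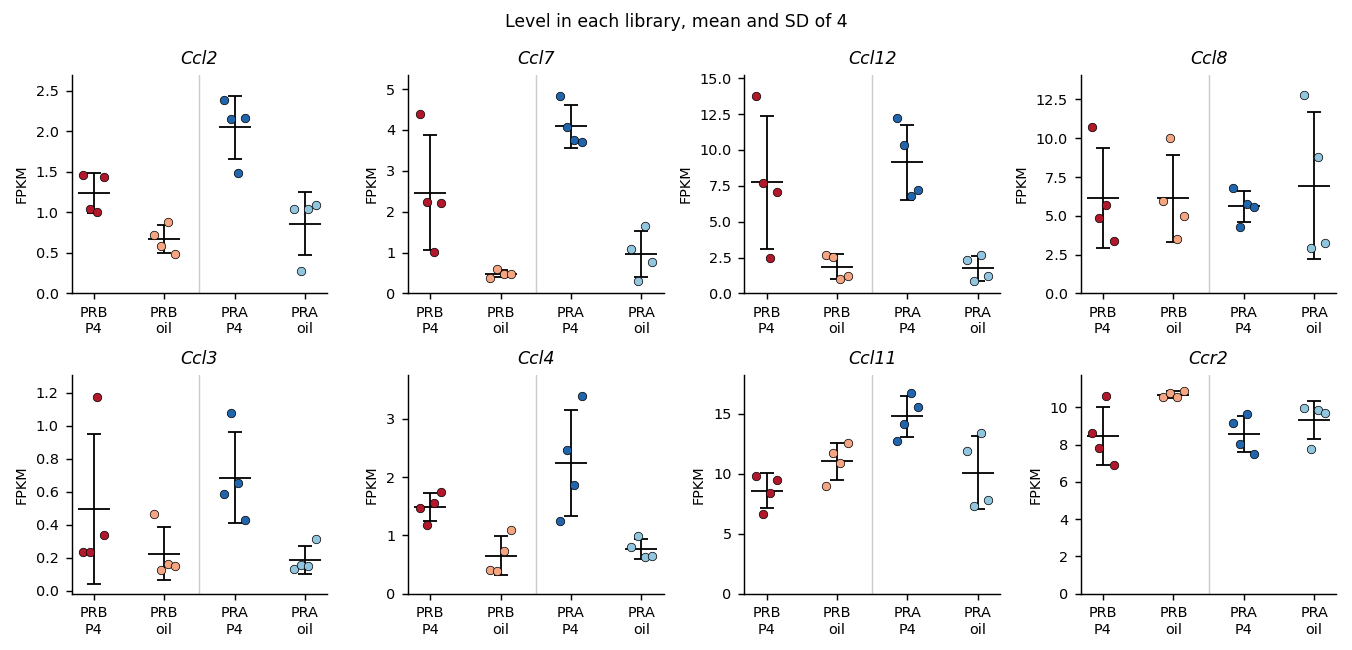
FPKM of Ccl2, Ccl7, Ccl12, Ccl8, Ccl3, Ccl4, Ccl11 and Ccr2 in each library, with points for libraries and bars for the mean and SD of 4. Ccl7 and Ccl4 are higher in every P4 library than in every oil library of the same strain, Ccl8 overlaps throughout, and Ccl11 is highest in PRA with P4, at 12.7 to 16.7 FPKM.

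Of the eosinophil attractants, Ccl11 was the only one tested. Known as eotaxin and a ligand of Ccr3, it was at 9.79, 6.63, 8.41 and 9.52 FPKM in PRB with P4, against 8.97, 11.73, 10.91 and 12.58 FPKM in PRB with oil. PRA had 12.73, 14.16, 16.71 and 15.57 FPKM with P4, against 11.92, 7.27, 13.40 and 7.79 FPKM with oil. It rose in PRA (log2 difference 0.54, SE 0.17, limma adjusted p = 0.0112), while the PRB difference was -0.33 (SE 0.17, 0.0987). Both pairs of groups overlapped. Ccr3 lay at 0.0319 to 0.119 FPKM in all libraries, and of 6 eosinophil markers Epx, Siglec5 and Il5ra averaged under 0.1 FPKM. Ear2, the 1 marker tested, was at 1.96 to 5.04 FPKM and did not pass in either strain. Prg2 was at 0.599 to 1.76 FPKM in PRA with P4 and 0.194 to 0.582 FPKM in PRA with oil, and at 0.214 to 0.685 FPKM in PRB with P4 and 0.177 to 0.981 FPKM in PRB with oil. The part of eosinophils in the level of Ccl11 was not tested.

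The neutrophil attractant Cxcl1 rose in PRB. Cxcl1 (chr5:90891241-90893115), a ligand of Cxcr2 that NF-kB signalling is known to induce and whose promoter is printed above, was at 6.71, 3.34, 2.17 and 1.81 FPKM in PRB with P4, against 0.376, 0.512, 0.713 and 0.445 FPKM in PRB with oil. In PRA it was at 0.413, 0.960, 0.176 and 0.563 FPKM with P4, against 0.513, 0.113, 0.152 and 0.457 FPKM with oil. All 4 P4 libraries of PRB lay above every other library, and the PRA groups overlapped. The mean FPKM was 6.85-fold higher with P4 in PRB. The means in PRB with oil, PRA with P4 and PRA with oil were 0.5115, 0.528 and 0.309 FPKM. Cxcl1 thus passed the filter of 1 FPKM only through PRB with P4, the group where it was high. On the scale of log2(FPKM + 1), which understates changes of weak genes, the PRB difference was 1.46 (SE 0.26, limma adjusted p = 0.000138). In PRA the difference was 0.21 (SE 0.26, 0.479).

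Its relatives Cxcl2, Cxcl3 and Cxcl5 had means under 1 FPKM, so they were outside the main test. A further fit took the 18832 features that averaged 0.1 FPKM or more, with a pseudocount of 0.1. There 31.9% of features rose in PRB, and 32.1% rose and 33.3% fell in PRA. Cxcl5 rose in both strains in this fit, and Cxcl2 rose in PRB. Cxcl5 was at 2.23, 2.15, 2.12 and 1.48 FPKM in PRB with P4, against 0.241, 0.126, 0.384 and 0.190 FPKM in PRB with oil (log2 difference 2.68, SE 0.49, limma adjusted p = 0.000229). In PRA Cxcl5 had 1.03, 1.32, 0.231 and 0.144 FPKM with P4, against 0.0681, 0.338, 0.156 and 0.0937 FPKM with oil (1.29, SE 0.49, 0.0326). The PRB groups were apart, and of the PRA P4 libraries 2 were high and 2 lay within the oil range. Cxcl2 was at 0.884, 0.492, 0.428 and 0.130 FPKM in PRB with P4, against 0 to 0.0478 FPKM in PRB with oil (2.03, SE 0.41, 0.000505), and at 0.0269 to 0.288 FPKM in PRA with P4, against 0.0310 to 0.0323 FPKM in PRA with oil (0.79, 0.107). Cxcl2 passed the filter of 0.1 FPKM only through PRB with P4. Cxcl3 did not exceed 0.216 FPKM in any library.

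Receptors for these ligands were near the limit of detection. Cxcr2 stayed between 0 and 0.134 FPKM. Cxcr1 was at 0, 0.0527, 0.0177 and 0.0178 FPKM in PRB with P4 and at 0 to 0.0162 FPKM in PRB with oil. In PRA it reached 0.223, 0.350, 0.254 and 0.228 FPKM with P4, against 0 to 0.0165 FPKM with oil. All 4 PRA P4 libraries lay above the other 12, on about 19.7 to 30.8 implied fragments each, while the other libraries held at most 4.6. In a fit of all 23557 features above 0 in some library, Cxcr1 rose in PRA, as 25.8% of features did (log2 difference 0.33, SE 0.03, limma adjusted p = 9.00e-08), and had the only called difference of responses among the 55 genes (-0.31, SE 0.04, 0.00115); 1.33% of features were called there. Of 8 neutrophil markers, 1 was abundant enough to test. That marker, S100a8, rose by 1.02 in PRB and by 1.40 in PRA, as 36.2% and 36.6% of all features did. The others did not all rise. The P4 and oil ranges of Csf3r, Retnlg, Ngp and Mpo overlapped in both strains, and Mmp8 averaged under 0.1 FPKM. Camp was higher in every P4 library than in every oil library of its strain. It was at 0.383 to 1.81 FPKM with P4 and 0.108 to 0.208 FPKM with oil in PRB, and 0.266 to 1.15 FPKM and 0.178 to 0.252 FPKM in PRA. S100a9 was apart in PRA, at 0.425 to 4.02 FPKM with P4 and 0.0431 to 0.404 FPKM with oil, and overlapped in PRB. Summed, the 8 markers lay at 4.44 to 12.03 FPKM in PRB with P4, 2.51 to 3.17 FPKM in PRB with oil, 4.98 to 11.43 FPKM in PRA with P4 and 1.82 to 2.43 FPKM in PRA with oil. S100a8 alone held 1.375 to 4.541 FPKM of this in PRB with P4 and 2.67 to 4.15 FPKM in PRA with P4. The part of neutrophils in the levels of Cxcr1, Cxcl1, Cxcl2 and Cxcl5 was not tested.

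**Figure D4:**
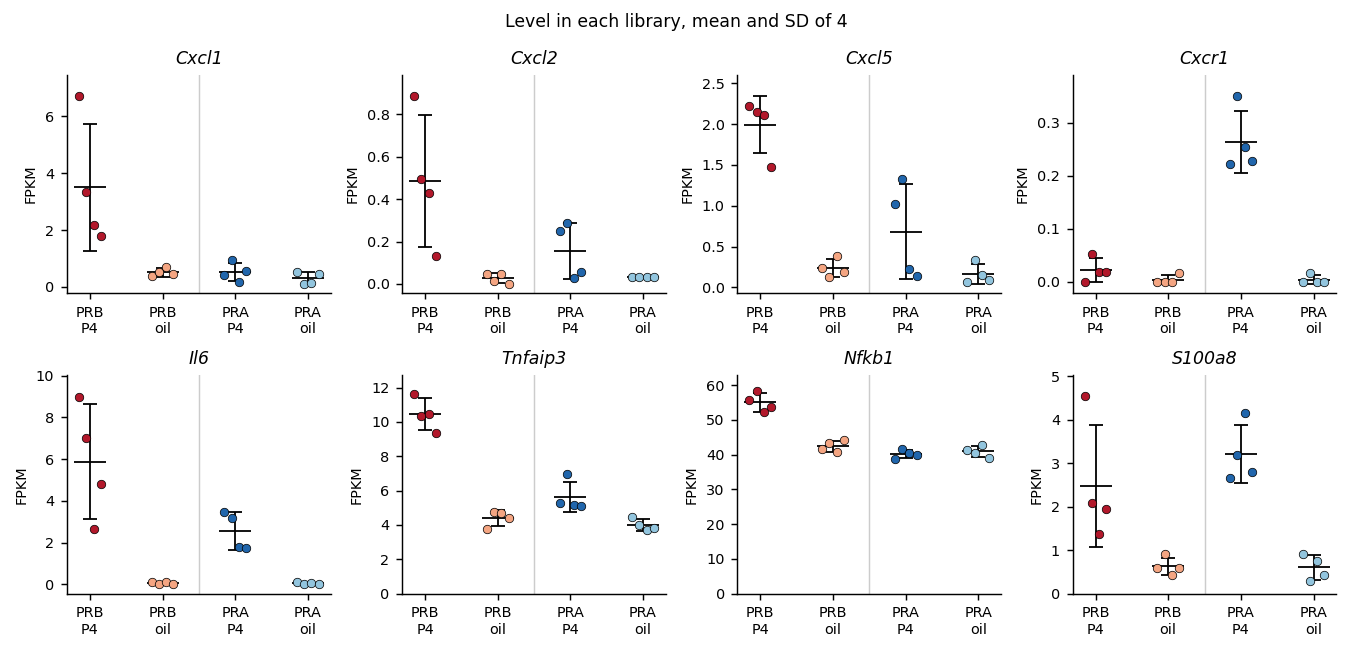
FPKM of Cxcl1, Cxcl2, Cxcl5, Cxcr1, the inflammatory genes Il6, Tnfaip3 and Nfkb1, and the neutrophil marker S100a8 in each library, with points for libraries and bars for the mean and SD of 4. Cxcl1 is above 1.8 FPKM in all 4 libraries of PRB with P4 and below 1 FPKM in all others, Cxcr1 is high only in PRA with P4, and S100a8 is high with P4 in both strains.

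The other genes that passed the test did so in PRB or in PRA alone, and none of them was called for the difference of the responses. Cxcl10, an interferon-inducible ligand of Cxcr3 on T and NK cells, fell in PRB, at 2.62, 1.01, 0.770 and 1.00 FPKM with P4, against 2.37, 1.98, 4.51 and 6.22 FPKM with oil (log2 difference -0.99, SE 0.32, limma adjusted p = 0.0132). Replicate 1 with P4 lay within the oil range, and the call ended under quantile normalization (adjusted p = 0.0519). In PRA Cxcl10 was at 2.00 ± 0.830 FPKM with P4 and 2.67 ± 1.29 FPKM with oil (-0.28, 0.458). Cxcr6, the receptor of Cxcl16 on T and NKT cells, fell in PRB, at 2.22, 3.34, 2.21 and 2.20 FPKM with P4, against 3.80, 2.66, 4.97 and 4.70 FPKM with oil (-0.51, SE 0.16, 0.00881), a call also lost under quantile normalization (0.115). In PRA it was at 4.24 ± 0.842 FPKM with P4 and 3.19 ± 0.230 FPKM with oil (0.31, 0.0911). Cxcl16 itself did not pass the test in either strain.

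Cxcl17, a ligand of mucosal epithelia, fell in PRA, at 17.00, 9.63, 5.81 and 5.91 FPKM with P4, against 31.55, 18.41, 37.67 and 16.83 FPKM with oil (log2 difference -1.40, SE 0.58, limma adjusted p = 0.0425). Replicate 1 with P4 lay within the oil range, and the call ended without PRA P4 replicate 2, 3 or 4, PRA oil replicate 1 or 3, or PRB oil replicate 1 (adjusted p of 0.0504 to 0.108). In PRB it was at 14.70, 10.49, 80.18 and 8.06 FPKM with P4, against 33.68, 46.13, 17.69 and 20.41 FPKM with oil. Replicate 3 alone was above the oil range: with it the log2 difference was -0.58 (0.392), and without it -1.27, which passed the test (0.0123). Ackr2, an atypical receptor that clears inflammatory CC ligands, rose in PRB, at 2.99 ± 0.695 FPKM with P4 and 1.90 ± 0.339 FPKM with oil (0.45, SE 0.17, 0.0238), a call that ended without PRB P4 replicate 2 or 3 or PRB oil replicate 4 (0.0644 to 0.0747). In PRA it was at 2.18 ± 0.536 FPKM with P4 and 2.13 ± 0.562 FPKM with oil. Cxcl14, Cxcl15, Cxcr3, Ccl17, Ccl22 and Xcl1 passed the test in neither strain.

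**Figure D5:**
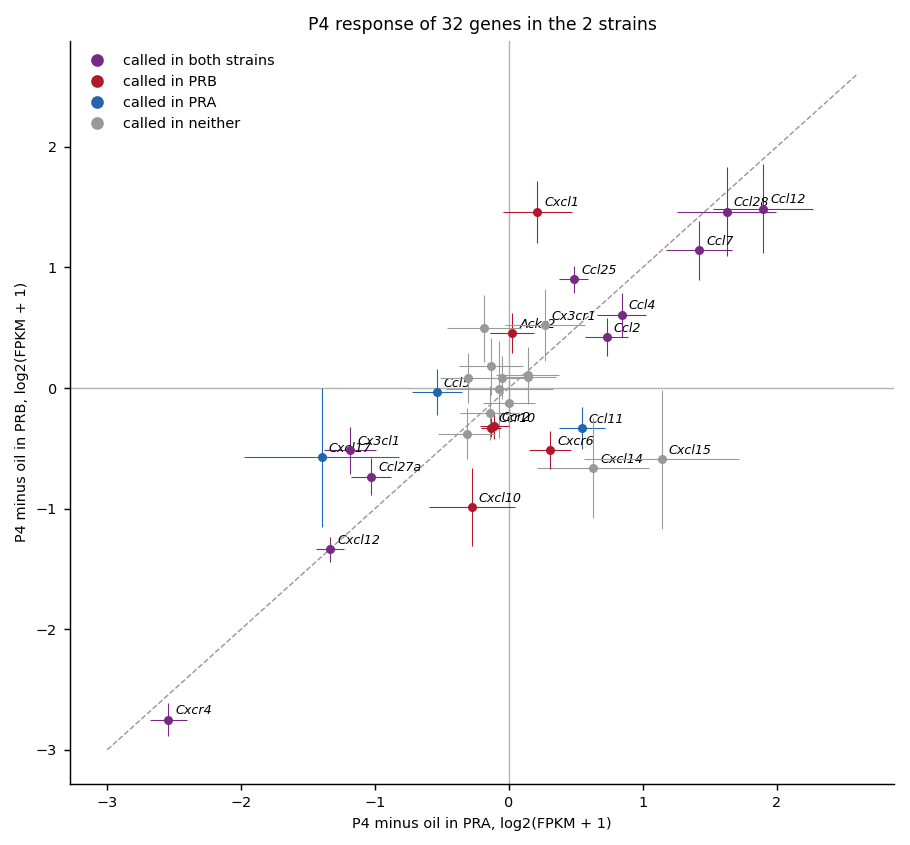
P4 response of 32 of the 33 tested genes, as the difference of P4 minus oil in log2(FPKM + 1), in PRA on the horizontal and PRB on the vertical axis; bars are the SE and the dashed line marks equal responses. Cxcr4 and Cxcl12 lie on or near the line at the lower left, Ccl7, Ccl12 and Ccl28 near it at the upper right, and Cxcl1 above it at 1.46 in PRB and 0.21 in PRA.

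With oil, the strains did not differ in any of the 33 genes by limma's adjusted p, and 0.117% of all features did. An unadjusted p under 0.05 was reached by 3 genes, beside 5.21% of all features, all higher in PRB, among them Ccl22 and Xcl1. Ccl22, a ligand of Ccr4, was at 1.68 ± 1.11 FPKM in PRB and 0.670 ± 0.446 FPKM in PRA (log2 difference 0.64, adjusted p = 0.671). Xcl1, made by NK and CD8 T cells, was at 6.37 ± 1.60 FPKM in PRB and 3.91 ± 1.06 FPKM in PRA (0.59, 0.802). The 10 T and NK cell markers summed to 17.41 to 23.18 FPKM in PRB with oil and 11.24 to 15.13 FPKM in PRA with oil, and their part in the level of Xcl1 was not tested. For 3 genes the oil libraries of the strains did not overlap, all higher in PRB, beside 1.25% of all features. The median difference was 0.15 for the 33 genes and -0.02 for all features.

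With P4, 5 genes were higher and 3 lower in PRB than in PRA, beside 7.75% and 8.29% of all features, 16% in all. The libraries of the strains did not overlap for 4 genes in either direction, beside 9.23% higher and 10.9% lower of all features. Cxcl1 was the largest, with a log2 difference of 1.47 (SE 0.26, limma adjusted p = 0.00213), at 3.50 ± 2.23 FPKM in PRB with P4 and 0.528 ± 0.329 FPKM in PRA with P4 (SD, n = 4 each). As given above, it passed the filter only through PRB with P4. Ccl11 was 0.73 lower in PRB (log2 difference -0.73, SE 0.17, 0.0121), at 8.59 ± 1.44 FPKM in PRB and 14.8 ± 1.73 FPKM in PRA. For both of these genes the P4 libraries of the strains did not overlap, and the call held without any 1 library and under every other setting that tested the gene. Of the genes under 1 FPKM, Cxcl5 was higher in PRB in the fit down to 0.1 FPKM (1.79, SE 0.49, 0.0278), where 6.77% of features were higher, and Cxcl2 was not (1.18, 0.0704).

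The other 6 calls between the strains under P4 ended when certain libraries were left out. Ccl17, a ligand of Ccr4, was at 2.72 ± 0.673 FPKM in PRB and 1.07 ± 0.460 FPKM in PRA (log2 difference 0.86, limma adjusted p = 0.0481). Its call ended without any of PRA P4 replicates 1 to 4, PRA oil 1 or 3, PRB P4 1, 3 or 4, or PRB oil 1 or 3 (0.0510 to 0.132). Cx3cl1 was at 24.2 ± 9.13 FPKM in PRB and 14.9 ± 2.87 FPKM in PRA (0.62, 0.0429). Leaving out PRA P4 replicate 1, 3 or 4, PRA oil 2 or 3, PRB P4 2, 3 or 4, or PRB oil 1 or 3 ended it (0.0512 to 0.126), and without PRB P4 3 the PRB mean was 19.7 FPKM and the difference 0.39. Thus leaving out any of 11 of the 16 libraries ended the call of Ccl17, and any of 10 that of Cx3cl1. Ccl5 was at 8.48 ± 1.75 FPKM in PRB and 5.05 ± 0.592 FPKM in PRA (0.63, 0.0348), and its call ended without PRA P4 1, 3 or 4 or PRB P4 1, 2 or 3 (0.0620 to 0.0957) and with the replicate number as a block. Of 7 tested T and NK cell markers, 2, Nkg7 and Klrb1c, were higher in PRB, beside 7.75% of all features. The T cell markers Cd3e and Cd3g were not higher. Cd3e was at 0.673 to 0.993 FPKM in PRB with P4 and 0.765 to 1.85 FPKM in PRA with P4. Cd3g was at 0.626 to 1.09 FPKM and 0.951 to 2.14 FPKM. The 10 markers summed to 14.57 to 26.25 FPKM in PRB with P4 and 10.59 to 11.95 FPKM in PRA with P4. Nkg7 alone held 6.37 to 13.19 FPKM and 3.82 to 4.13 FPKM of this. With oil the sums of the strains were apart too, as given above, where Ccl5 was at 8.88 ± 3.06 FPKM in PRB and 7.82 ± 1.23 FPKM in PRA and did not pass the test. Their part in the level of Ccl5 was not tested.

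Ccl25 was 0.37 higher in PRB (limma adjusted p = 0.0338), a call that ended without PRA P4 replicate 3 or 4 or PRB P4 replicate 2 or 3 (0.0694 to 0.108). Ccr10 was lower in PRB (log2 difference -0.25, adjusted p = 0.0398), which ended without any of PRA P4 1 to 4, PRA oil 2, or PRB P4 2, 3 or 4 (0.0510 to 0.112), and with the replicate block. Cxcr6 was lower in PRB (-0.58, 0.0218), a call lost without PRA P4 1 or 3 or PRB P4 1 or 4 (0.0512 to 0.0607). Without PRB P4 replicate 3, Ccl28 passed the test, 0.78 higher in PRB (0.00228). The monocyte attractants Ccl7 and Ccl2 were at lower levels in PRB with P4, at -0.64 and -0.44, and did not pass the test (0.0937 and 0.0724). An unadjusted p under 0.05 was reached by 12 of the 33 genes, beside 30.7% of all features.

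The response itself was compared between the strains by subtracting the P4 difference of PRA from that of PRB. None of the 33 genes was called by limma, while 2.28% of all features were, and 7 of the 33 had an unadjusted p under 0.05, beside 16.5% of all features. The closest were Cxcr6 (-0.82, SE 0.22, adjusted p = 0.0688), Ccl11 (-0.88, SE 0.24, 0.0774) and Cxcl1 (1.25, SE 0.36, 0.0905). Each of these passed when a certain library was left out, PRB oil replicate 2 for Cxcr6, PRA oil replicate 3 for Ccl11 and PRB P4 replicate 4 for Cxcl1. Cxcr4 differed by -0.20 (SE 0.20) and Cxcl12 by 0.00 (SE 0.15) between the responses. The largest differences in size were those of Cxcl15 (-1.73, SE 0.82, 0.310) and Cxcl14 (-1.29, SE 0.59, 0.291), whose levels varied several-fold within the oil groups.

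Of 15 tested genes that act downstream of chemokine receptors, 5 rose and 3 fell in PRB, and 6 rose and 4 fell in PRA. These shares are near or under those of all features, of which 36.2% rose and 32.9% fell in PRB, and 36.6% rose and 33.2% fell in PRA. The median difference of the 15 was 0.20 in PRB and -0.03 in PRA. Pik3cg, the PI3K catalytic subunit that G protein-coupled receptors activate in leukocytes, rose by 1.61 in PRB and 0.91 in PRA, at 5.64 ± 1.03 FPKM with P4 and 1.15 ± 0.0781 FPKM with oil in PRB, and 2.78 ± 0.255 FPKM with P4 and 1.03 ± 0.244 FPKM with oil in PRA. Its response was larger in PRB (difference 0.71, SE 0.16, limma adjusted p = 0.0361), a call that was lost with the replicate block. It was the 1 called difference of responses among the 15, beside 2.28% of all features. Arrb1, a beta-arrestin that ends receptor signalling, fell by 1.02 in PRB and by 1.48 in PRA on the log2 scale. Rgs2, a brake on G protein signalling, rose by 1.37 in PRB and 1.01 in PRA, and Elmo1, which links the receptors to Rac, by 1.15 and 1.29. Under P4, 3 of the 15 were higher and 0 lower in PRB than in PRA, beside 7.75% and 8.29% of all features, namely Pik3cg, Arrb1 and Rgs2.

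Of 9 tested relatives of the chemokine system outside the rule, 3 rose and 4 fell in PRB, and 3 rose and 3 fell in PRA, beside the same shares of all features. Their median difference was -0.18 in PRB and -0.20 in PRA. Ackr4, the atypical receptor that clears Ccl19, Ccl21 and Ccl25, was at 1.09 ± 0.526 FPKM with P4 and 3.70 ± 0.499 FPKM with oil in PRB (log2 difference -1.19, limma adjusted p = 1.63e-05), and at 0.934 ± 0.363 FPKM with P4 and 2.95 ± 0.489 FPKM with oil in PRA (-1.04, 5.72e-05). Ccrl2, which presents the attractant chemerin, fell by 1.20 in PRB and by 1.46 in PRA. Rarres2, the chemerin gene, fell by 0.74 in PRB and by 0.72 in PRA, while its signalling receptor Cmklr1 rose by 1.13 in PRB and 0.70 in PRA. The row with the older symbol Darc, a RefSeq synonym of Ackr1, did not pass the test in either strain. Cd74 was the 1 relative of 9 called between strains under P4, 0.26 higher in PRB, where 7.75% of all features were higher.

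Most of the tested inducers and regulators of chemokine genes rose with P4 in PRB. Of 17 tested, 11 rose and 1 fell in PRB, beside 36.2% and 32.9% of all features. In PRA 6 of the 17 rose and 2 fell, beside 36.6% and 33.2%. Their median difference was 0.53 in PRB and 0.20 in PRA. The list holds activators together with inhibitors such as Tnfaip3, so these counts give no direction for the chemokine genes. Irf1 was lower with P4, at 21.46 to 29.57 FPKM in PRB, against 40.33 to 51.22 FPKM with oil. In PRA it was at 21.61 to 24.38 FPKM with P4, against 39.61 to 45.35 FPKM with oil. Il6, a cytokine gene, was at 2.63 to 8.99 FPKM in PRB with P4, against 0 to 0.108 FPKM in PRB with oil, and at 1.75 to 3.46 FPKM in PRA with P4, against 0.0308 to 0.0960 FPKM in PRA with oil (log2 differences 2.61 in PRB and 1.72 in PRA; limma adjusted p = 2.99e-07 and 2.10e-05). Tnfaip3, a target and inhibitor of NF-kB, was at 10.5 ± 0.922 FPKM with P4 and 4.40 ± 0.444 FPKM with oil in PRB, and at 5.63 ± 0.881 FPKM with P4 and 4.00 ± 0.346 FPKM with oil in PRA. Its response was 0.68 larger in PRB (SE 0.13, limma adjusted p = 0.0180). Nfkb1, an NF-kB subunit, was at 55.0 ± 2.70 FPKM with P4 and 42.5 ± 1.60 FPKM with oil in PRB, and at 40.2 ± 1.24 FPKM with P4 and 41.0 ± 1.55 FPKM with oil in PRA, a difference of responses of 0.39 (SE 0.06, 0.00528). These were the 2 called differences of responses among the 17, beside 2.28% of all features. Under P4, 7 of the 17 were higher and 0 lower in PRB than in PRA, beside 7.75% and 8.29% of all features, among them Cebpd (1.20), Il6 (0.89), Zfp36 (0.88) and Tnfaip3 (0.79). With oil, no gene of these lists was called between the strains.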

How the data were processed

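Per the labels, RNA of whole uteri was sequenced in 16 libraries, 4 in each of 4 groups. The authors deposited 1 table of FPKM per feature and library. The submitters' processing notes list mm10 as the build, and TopHat2 2.0.4, Cufflinks 2.0.2 and Cuffdiff as tools; what each did, which annotation served, whether counting used the strand and how libraries were scaled is not given in the sources used here. No fragment counts were used, so the depth was only implied from the spacing of low values of features with 1 transcript of at least 800 bases.

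Values were taken as log2(FPKM + 1), which understates changes of weak genes. The 15408 features that averaged 1 FPKM or more entered 1 limma 3.58.1 model (R 4.3.3) with a mean per group and an intensity trend. The moderated tests are two-sided, with Benjamini-Hochberg adjustment over all features and a threshold of 0.05. The script was tested on simulated data. Compared were P4 and oil within each strain, PRB and PRA within each treatment, and the responses of the strains; these comparisons share libraries. Nothing in the labels says how the biological replicates were taken, so p-values measure the spread between these libraries. The genes and all lists were chosen with earlier results of these data known. Every gene of the rule could be named, but 1 tested gene is not reported here and enters only the counts and medians, and of each other list up to 4 called genes per contrast. Alternatives were other pseudocounts, filters and scalings, the libraries of the contrast alone, no trend, a replicate block, and leaving out each library. Positions are from GENCODE M21 (GRCm38); near copies had at least 95% identity over 300 bases in BLAST 2.17.0. Figures were drawn with matplotlib 3.10.9.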

Additional observations from a re-analysis of the deposited data

Results flagged for a closer look

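Within a group of 4 libraries, 11 values of the tested genes lay so far from the other 3 that Dixon's test marked them. Of the 132 groups looked at, chance marks about 1 in 20, or 6.6. Replicate 3 of PRB with P4 held 3 of the marks. Its Cx3cr1 was 15.47 FPKM, against 3.88 to 4.42 FPKM in the others, its Cxcl17 was 80.18 FPKM, against 8.06 to 14.7 FPKM, and its Cxcr3 was 3.22 FPKM, against 1.49 to 1.74 FPKM. Summed macrophage and monocyte markers were high in that library too, at 701.1 FPKM, and their part was not tested.

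Replicate 4 of PRB with oil held another 3 marks. Xcl1 was at 8.75 FPKM there, against 5.38 to 5.81 FPKM, Cxcr3 at 3.44 FPKM, against 1.79 to 2.03 FPKM, and Ccr1 at 0.483 FPKM, against 1.30 to 1.45 FPKM. In replicate 2 of PRA with oil, Ccl2 was low at 0.280 FPKM, against 1.03 to 1.09 FPKM, and Ccr2 was low at 7.78 FPKM, against 9.72 to 9.95 FPKM. The other marks were Cxcl10 at 2.62 FPKM in PRB P4 replicate 1, against 0.770 to 1.01 FPKM, Cxcr6 at 3.34 FPKM in PRB P4 replicate 2, against 2.20 to 2.22 FPKM, and Ccl22 at 0.648 FPKM in PRA P4 replicate 2, against 0.409 to 0.427 FPKM.

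The P4 response of the neutrophil receptor Cxcr1 differed between the strains in the fit without a filter on low values, by -0.31 (PRB minus PRA, log2 scale; limma adjusted p = 0.00115). The gene was near 0 in 12 of the 16 libraries.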

How the results depend on the processing

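Of the members called, 9 of 16 in PRB, 12 of 14 in PRA and 2 of 8 between the strains under P4 kept their call under every alternative that tested them (up to 26 for each comparison), and no called direction reversed. With a filter at 5 FPKM, which tests fewer genes, 2 rose and 5 fell in PRB, 3 rose in PRA, and 2 were higher and 1 lower in PRB than in PRA under P4. Quantile normalization left 4 falls in PRB, losing Ccr10, Ccr2, Cxcl10 and Cxcr6; the cause was not tested. With a pseudocount of 0.1, and with no filter, 3 genes were higher in PRB than in PRA under P4, and with no filter 1 difference of responses was called, that of Cxcr1. Leaving out each library gave 6 to 8 rises and 6 to 9 falls in PRB, 8 to 9 rises and 4 to 6 falls in PRA, 0 calls between strains with oil, and 1 to 5 higher and 1 to 3 lower in PRB than in PRA under P4.

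Under P4 the higher count was 1 without PRA P4 replicate 3 or 4, 2 without PRA P4 1 or PRB P4 1, 2 or 3, and 3 without PRB P4 4, PRA oil 3 or PRB oil 1 or 3; the lower count was 1 without PRB P4 4 or PRA P4 1. The difference of responses gave 0 to 1 call in either direction, with 1 higher without PRB P4 4 and 1 lower without PRA oil 3 or PRB oil 2. Of 774 counts of the other gene lists under alternatives, 740 stayed within 1.5 times.

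The replicate numbers did not pair the libraries: of 16 same-numbered pairs, 3 had a correlation of deviations over 0.1 (-0.23 to 0.31), and 4 libraries correlated best with their own number. With the replicate number as a block, 8 genes rose and 8 fell in PRB, 8 rose and 6 fell in PRA, 0 were called with oil, 4 were higher and 2 lower in PRB than in PRA under P4, and 0 differences of responses were called. Genes under 1 FPKM rest on few fragments, which limits what can be read from Cxcl2, Cxcl3, Cxcr1 and Cxcr2.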

Other observations

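Cxcl14 and Cxcl15 varied within groups in the same libraries. Cxcl14, an attractant of epithelia and stroma, was at 36.40, 86.72, 29.69 and 108.8 FPKM in replicates 1 to 4 of PRA with oil, and Cxcl15, a neutrophil attractant known from lung, was at 2.20, 12.29, 1.72 and 14.41 FPKM. Both were low in replicates 1 and 3 and high in replicates 2 and 4. Cxcl17 had the other order in these libraries, at 31.55, 18.41, 37.67 and 16.83 FPKM. In PRB with oil, replicate 2 was lowest for Cxcl14 (43.35 FPKM) and Cxcl15 (4.07 FPKM) and highest for Cxcl17 (46.13 FPKM). Foxa2, 1 of 8 epithelial markers, was low and high in the same libraries, at 2.95, 7.76, 2.94 and 10.08 FPKM in PRA with oil, and was lowest in replicate 2 of PRB with oil, at 4.23 FPKM. Adipoq, 1 of 4 adipose markers, was high where these were low in PRA with oil, at 159.5, 45.01, 128.7 and 17.69 FPKM. In PRB with oil Adipoq did not keep this relation, at 21.64, 46.33, 89.13 and 23.56 FPKM. It was highest in replicate 3, where Cxcl14 was at 112.5 and Cxcl15 at 12.37 FPKM. Cldn3, another epithelial marker, did not follow Foxa2 in PRA with oil, at 158.8, 139.9, 185.5 and 149.6 FPKM. In PRA with oil the epithelial markers summed to 758.4 to 862.9 FPKM and the adipose markers to 97.87 to 808.7 FPKM. The part of these cells in the levels was not tested, and these markers were chosen after their values were seen.

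A further 3 genes under 1 FPKM passed in the fit down to 0.1 FPKM, all in PRA. Ccl3, a ligand of Ccr1, was at 0.685 ± 0.276 FPKM with P4 and 0.189 ± 0.0844 FPKM with oil (log2 difference 1.42, SE 0.42, limma adjusted p = 0.00791). Ccl24, an eosinophil attractant, was at 0.234 ± 0.136 FPKM with P4 and 0.846 ± 0.548 FPKM with oil (-1.35, SE 0.48, 0.0230). Cxcr5, a B cell receptor of Cxcl13, was at 0.193 ± 0.00829 FPKM with P4 and 0.330 ± 0.0994 FPKM with oil (-0.53, SE 0.17, 0.0142); its exons share 110 bases with Bcl9l on the other strand. Of 4 tested mast cell markers, 2 fell with P4 in PRB and 4 in PRA, beside 32.9% and 33.2% of all features, among them Cma1, at -0.45 in PRB (adjusted p = 0.0492) and -1.03 in PRA (0.000199).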
